A study of Mus musculus with 10 samples.

Results

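Untreated mouse embryoid bodies, clusters in which embryonic stem cells differentiate, were compared between day 2.5 and day 2 of differentiation. The comparison used 4 of the 10 libraries of the series, chosen by their labels: 2 untreated libraries of day 2.5 and 2 untreated libraries of day 2. The cells carry the iHA-Etv2 design, in which doxycycline induces HA-tagged Etv2, an ETS factor of blood and endothelial development, so the untreated libraries come from cells that hold the construct without its inducer. The other 6 libraries, used for the shared estimate of spread and for 1 comparison at the end, are doxycycline-treated at day 2.5, Flk1-positive doxycycline-treated at day 2.5, and doxycycline-treated at day 2, again 2 each. All but the Flk1-positive pair carry the Flk1 label FALSE, without a word on whether they were sorted. The labels name 1 line and no clone number, and nothing says that the replicates came from separate cultures, so the p-values cover only the spread among these libraries, which may be technical.

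Pluripotent cells leave the naive state of the early epiblast, pass through a formative state and then, under Nodal, Wnt, BMP and FGF signals, enter the primitive streak, the region of the embryo from which mesoderm and definitive endoderm arise. The T-box factors T (brachyury) and Eomes and the homeobox factor Mixl1 mark the streak, while cells there lose epithelial character through Snai1. Embryoid bodies pass through a similar order of states without the geometry of the embryo.

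Values below are CPM (read counts scaled to a common library size, itself adjusted by the TMM method), and they do not take gene length into account, so levels are compared between libraries and not between genes. Total counts were 23326111 and 24710072 in the day 2.5 libraries and 23358858 and 18666747 in the day 2 libraries. A count of 0 allows up to 3 counts, which is 0.124 to 0.164 CPM in these 4 libraries. A gene was called where the edgeR quasi-likelihood p, adjusted by the Benjamini-Hochberg method over all 14548 genes tested, was under 0.05, and this value is written edgeR adjusted p. On the second principal component of the 10 libraries, which held 13.7% of the variance, the day 2.5 libraries stood at -21.8 and -28.5 and the day 2 libraries at 18.7 and 20.3. The replicates of day 2.5 differed from each other more than those of day 2, at chi-square values per gene of 9.65 and 3.33, and the doxycycline day 2 pair stood apart at 32.

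Markers of both named states were present at both days. Pou5f1, the central pluripotency factor, had 1033 and 933 CPM at day 2.5 and 1336 and 1478 CPM at day 2. Fgf5, an epiblast growth factor, had 164 and 168 CPM at day 2.5 and 105 and 103 CPM at day 2. The streak factor T already had 388 and 392 CPM at day 2 and had 791 and 878 CPM at day 2.5. The day 2 libraries were therefore not free of streak transcripts, and the comparison is of a lower with a higher level of them. Some members of the marker lists of other cell types were at or near 0, summed over the 2 libraries of a day. They are named here for that reason, and other members of the same lists were expressed. At day 2.5 the summed level was 57.0 to 58.8 CPM for the fibroblast list, 46.3 to 47.1 CPM for trophoblast and 454 to 486 CPM for neuroectoderm. The leukocyte genes Lyz2 and Tyrobp, the trophoblast gene Tpbpa, the fibroblast gene Lum, the endothelial gene Emcn and the globin gene Hba-x had 0 counts at both days. Ptprc, which encodes CD45, had 2 counts at day 2.5 and 1 at day 2, the trophoblast factor Elf5 1 at day 2.5 and 0 at day 2, and the neural factor Sox1 2 at day 2.5 and 9 at day 2.

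At day 2.5, 1342 genes were higher and 1494 were lower than at day 2, which is 9.22% and 10.3% of the genes tested. Most changes were small. The median log2 fold change was 0.53 among the genes that rose and -0.57 among those that fell, and 130 genes rose and 305 fell by more than 2-fold. Over all genes tested the median log2 fold change was -0.023. Counts for the lists below stand beside these shares of 9.22% higher and 10.3% lower, also where the shares are not repeated. The lists were chosen with earlier results of these data known, so their counts and medians describe and do not test. The number of calls depended on single libraries. Without untreated day 2.5 replicate 2, 358 genes rose and 322 fell, and without replicate 1 of that day 917 rose and 960 fell. With untreated day 2 replicate 1 left out, 414 genes rose and 481 fell, and with its replicate 2 left out 406 rose and 460 fell. In the other direction, 2266 rose and 2536 fell without doxycycline day 2 replicate 1, and 2261 and 2532 without its replicate 2. In all 10 fits that left out 1 library, 263 of the rising genes, or 19.6%, and 258 of the falling genes, or 17.3%, were called in the same direction.

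**Figure D1:**
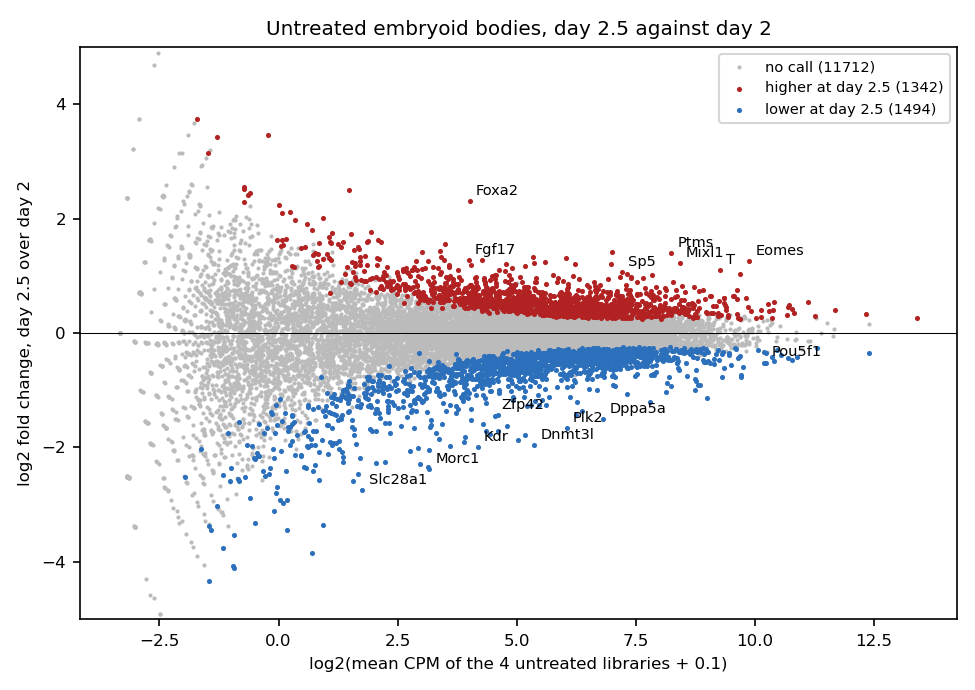
Each point is 1 of the genes tested, with log2 of the mean CPM of the 4 untreated libraries plus 0.1 on the x axis and the log2 fold change of day 2.5 over day 2 on the y axis; red points are the 1342 genes called higher, blue points the 1494 called lower and grey points the rest. The largest changes lie on the falling side and among genes of low and middle level, and 12 genes lie outside the range drawn.

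Genes of the primitive streak, led by its transcription factors, rose in part. Of 20 streak genes tested, 11 rose and none fell, and none was lower at an unadjusted p under 0.05 or by DESeq2 or limma-voom. The list, which was chosen with earlier results known and also holds Fst, Otx2, Mid1 and Frzb, had a median log2 fold change of 0.60. Over all genes the median was -0.023. In mm10 coordinates of the GENCODE annotation, the leading members lie at chr17:8434423-8442496, plus strand for T, at chr9:118478212-118486132, plus strand for Eomes and at chr1:180693043-180697034, minus strand for Mixl1. T had 791 and 878 CPM at day 2.5 and 388 and 392 CPM at day 2 (log2 fold change 1.10 ± 0.08 SE, edgeR adjusted p = 3.75e-06). Eomes had 1204 and 1455 CPM at day 2.5 and 563 and 549 CPM at day 2 (1.26 ± 0.11, edgeR adjusted p = 6.74e-06). Mixl1 had 469 and 489.6 CPM at day 2.5 and 213 and 197 CPM at day 2 (1.22 ± 0.10, edgeR adjusted p = 3.75e-06). For these 3 genes both day 2.5 libraries stood above both day 2 libraries, and each call was made in all 10 fits that left out 1 library. Bulk samples cannot tell a larger number of streak cells from more RNA of these genes per cell.

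The promoters of T and of Sp5, a zinc-finger gene known as a direct Wnt target, hold the core that TCF and LEF factors bind, and those of Eomes and of Zfp42, a marker of the naive state that fell, are shown for comparison. The sequences are from RefSeq on GRCm38.p6 and run from 250 bases before to 50 after the start of the gene. Capitals mark the letters CTTTGA on either strand. The match starts at -234 from the start of T and at -204 and -104 from that of Sp5, and the windows of Eomes and Zfp42 hold none.
T (chr17:8434173-8434472, plus strand): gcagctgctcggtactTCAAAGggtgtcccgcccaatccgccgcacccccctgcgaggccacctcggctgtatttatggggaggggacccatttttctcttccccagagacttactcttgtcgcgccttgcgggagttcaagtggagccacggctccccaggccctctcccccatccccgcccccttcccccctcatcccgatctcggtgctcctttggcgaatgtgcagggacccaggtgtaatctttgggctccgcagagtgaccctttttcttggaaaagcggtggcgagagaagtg
Sp5 (chr2:70474673-70474972, plus strand): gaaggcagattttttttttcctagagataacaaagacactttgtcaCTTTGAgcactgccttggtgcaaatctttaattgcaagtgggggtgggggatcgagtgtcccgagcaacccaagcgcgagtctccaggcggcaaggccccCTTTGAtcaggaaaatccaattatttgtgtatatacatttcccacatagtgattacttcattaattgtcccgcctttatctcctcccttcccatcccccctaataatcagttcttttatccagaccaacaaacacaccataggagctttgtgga
Eomes (chr9:118477939-118478238, plus strand): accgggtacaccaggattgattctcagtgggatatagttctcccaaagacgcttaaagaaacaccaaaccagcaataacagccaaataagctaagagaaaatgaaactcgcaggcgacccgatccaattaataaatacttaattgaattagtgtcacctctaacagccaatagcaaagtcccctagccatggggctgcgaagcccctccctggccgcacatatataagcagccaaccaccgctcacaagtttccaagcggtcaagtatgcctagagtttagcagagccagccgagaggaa
Zfp42 (chr8:43306960-43307259, minus strand): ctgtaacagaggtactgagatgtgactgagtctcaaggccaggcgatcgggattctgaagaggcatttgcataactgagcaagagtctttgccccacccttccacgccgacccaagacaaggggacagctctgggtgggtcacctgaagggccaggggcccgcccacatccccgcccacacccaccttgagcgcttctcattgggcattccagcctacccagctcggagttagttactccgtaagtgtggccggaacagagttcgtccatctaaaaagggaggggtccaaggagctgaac

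Promoters on chromosome 18, where Cdx1 lies, were left out of the streak count but kept in the other shares below. Of the 21 streak genes, 18 had a promoter entry that was counted. The core was found in at least 1 promoter of 8 of these genes, which is 8 of 27 promoters or 29.6%. They were T, Sp5, Foxa2, Mid1 and Frzb, which rose, and Mesp1, Msgn1 and Sp8, which were not called. No promoter of Eomes, Gsc, Snai1 or Otx2 held the core, nor did those of Axin2 and Tdgf1 outside the streak list, although all of these genes rose. A link of the core with the rise was not tested. Among all 32851 promoters 16.0% held the core. The share was 12.0% among genes that rose, 11.6% among those that fell and 11.9% among all genes tested with an entry. The T-box half-site AGGTGTGA was found in 1.02% of promoters of genes that rose, 0.718% of those that fell and 0.86% of those tested. These are counts of letters in short windows and not of binding sites.

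Foxa2, a forkhead factor of the anterior streak and endoderm, had the largest rise of the streak genes. It had 24.5 and 28.8 CPM at day 2.5 and 5.37 and 5.46 CPM at day 2 (2.30 ± 0.27, edgeR adjusted p = 0.000125). Snai1, the repressor of Cdh1 that acts as cells leave the epithelium, had 75.0 and 78.1 CPM at day 2.5 and 40.1 and 38.9 CPM at day 2 (0.95 ± 0.11, edgeR adjusted p = 8.93e-05). Fst, which encodes the activin antagonist follistatin, had 422 and 417 CPM at day 2.5 and 281 and 279.5 CPM at day 2 (0.58 ± 0.11, edgeR adjusted p = 0.00255). These 3 genes did not overlap between the days and were called in all 10 fits without 1 library. Gsc, a homeobox factor of the organizer region, had 30.5 and 28.4 CPM at day 2.5 and 14.6 and 15.1 CPM at day 2 (0.99 ± 0.24, edgeR adjusted p = 0.00985). Its groups did not overlap either, but its call ended without any of the 4 untreated libraries (edgeR adjusted p = 0.0672 without untreated day 2.5 replicate 1, 0.0765 without untreated day 2.5 replicate 2, 0.0876 without untreated day 2 replicate 1 and 0.0761 without untreated day 2 replicate 2). Otx2, Mid1 and Frzb also rose, by log2 0.30, 0.46 and 0.71. Their calls ended when 1 library was left out, that of Otx2 with edgeR adjusted p = 0.163 without untreated day 2.5 replicate 1, 0.0727 without untreated day 2.5 replicate 2, 0.143 without untreated day 2 replicate 1, 0.198 without untreated day 2 replicate 2 and 0.0552 without doxycycline day 2.5 replicate 2. That of Mid1 ended with edgeR adjusted p = 0.111 without untreated day 2.5 replicate 2 and 0.0950 without untreated day 2 replicate 2. That of Frzb ended with edgeR adjusted p = 0.106 without untreated day 2.5 replicate 1, 0.102 without untreated day 2.5 replicate 2, 0.0845 without untreated day 2 replicate 1 and 0.153 without untreated day 2 replicate 2.

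The rise did not extend to all genes of the streak and its mesoderm. Mesp1, which marks the earliest cardiac and cranial mesoderm, had 20.0 and 21.6 CPM at day 2.5 and 23.6 and 20.2 CPM at day 2 (-0.07 ± 0.25, edgeR adjusted p = 0.867). Lhx1 had 37.2 and 37.5 CPM at day 2.5 and 36.3 and 32.3 CPM at day 2 (0.12 ± 0.13, edgeR adjusted p = 0.564), and Evx1, a gene of the posterior streak, 75.8 and 75.5 CPM at day 2.5 and 64.1 and 67.0 CPM at day 2 (0.21 ± 0.14, edgeR adjusted p = 0.309). The values of Mesp1 overlapped between the days, while those of Lhx1 and Evx1 did not but differed by little. The posterior genes Cdx1 and Cdx2 and the presomitic genes Tbx6 and Msgn1 were not called, with log2 fold changes of 0.94 ± 0.51, -0.04 ± 0.23, 0.62 ± 0.33 and 0.16 ± 0.81. Cdx4 was under the filter on low counts, with 15 counts at day 2.5 and 7 at day 2. The count of 11 rising streak genes was 7 without untreated day 2.5 replicate 2 or untreated day 2 replicate 2.

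**Figure D2:**
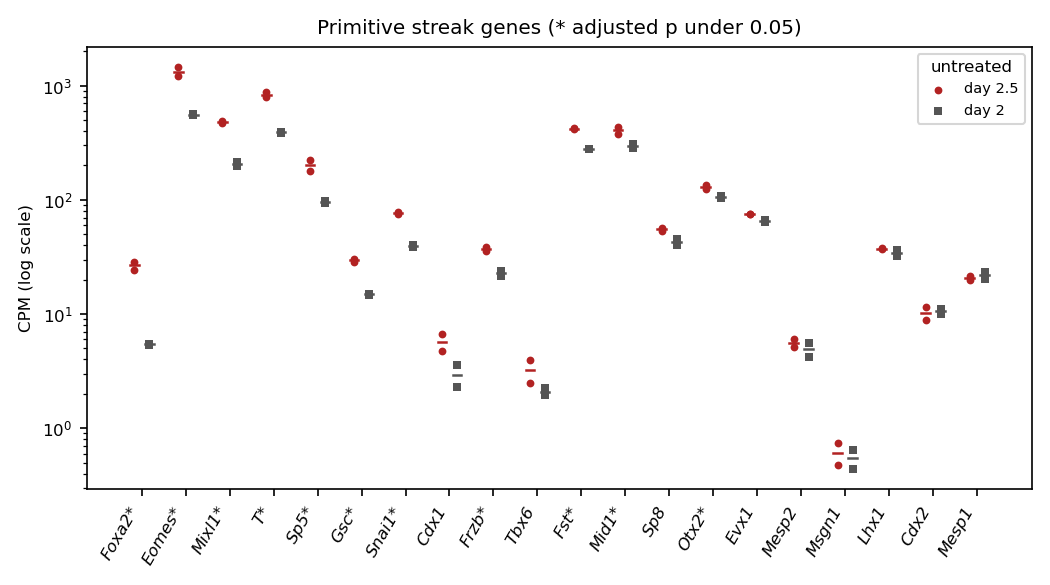
CPM on a log scale for the 20 streak genes tested, ordered by log2 fold change, with red circles for the 2 untreated day 2.5 libraries, grey squares for the 2 untreated day 2 libraries and a bar at each mean. The 11 genes marked with an asterisk passed an edgeR adjusted p under 0.05; for Foxa2, Eomes, Mixl1, T and Sp5 the circles lie well above the squares, while those of Mesp1 and Cdx2 mix.

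Wnt signalling genes moved upward in part, among them targets and feedback inhibitors of the pathway. Of 44 genes tested, 9 rose and 1 fell, against 9.22% and 10.3% of all genes, with a median log2 fold change of 0.15. Among ligands, Wnt8a had 104 and 127 CPM at day 2.5 and 64.6 and 67.7 CPM at day 2 (0.81 ± 0.12, edgeR adjusted p = 0.000718). Wnt3, the ligand needed for streak formation in the mouse embryo, had 80.5 and 82.3 CPM at day 2.5 and 69.6 and 81.1 CPM at day 2 and was not called (0.11 ± 0.10, edgeR adjusted p = 0.468). Wnt8a thus stood higher in both day 2.5 libraries, while the values of Wnt3 overlapped between the days. Wnt5a, a ligand of the non-canonical branch, fell (5.004 and 6.63 CPM at day 2.5, 12.0 and 11.5 CPM at day 2, log2 -1.01 ± 0.21, edgeR adjusted p = 0.00489), a call that ended with edgeR adjusted p = 0.0539 without untreated day 2 replicate 1.

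Axin2, a negative feedback regulator induced by the pathway, had 293 and 324 CPM at day 2.5 and 173 and 179.9 CPM at day 2 (0.80 ± 0.09, edgeR adjusted p = 6.76e-05). Sp5 had 179 and 223 CPM at day 2.5 and 93.1 and 98.4 CPM at day 2 (1.07 ± 0.13, edgeR adjusted p = 0.000127). Tcf7, which encodes one of the nuclear partners of beta-catenin, had 281 and 332 CPM at day 2.5 and 205 and 199.98 CPM at day 2 (0.60 ± 0.10, edgeR adjusted p = 0.000900). Both day 2.5 libraries were above both day 2 libraries for all 3 genes, and all 3 calls were made in every fit without 1 library. The antagonist Nkd1 rose by log2 0.74, Tcf7l2 by 0.73, the co-receptor Lrp5 by 0.33 and Lef1, another nuclear partner, by 0.30. These calls ended in some fits without 1 library, most of which left 1 library in an untreated group. The log2 fold changes moved little over the 10 fits. They ran from 0.69 to 0.79 for Nkd1, 0.69 to 0.79 for Tcf7l2, 0.33 to 0.35 for Lrp5 and 0.27 to 0.34 for Lef1. That of Nkd1 ended with edgeR adjusted p = 0.0524 without untreated day 2.5 replicate 2. That of Tcf7l2 ended with edgeR adjusted p = 0.0586 without untreated day 2.5 replicate 2 and 0.0748 without untreated day 2 replicate 2. That of Lrp5 ended with edgeR adjusted p = 0.0686 without untreated day 2.5 replicate 1, 0.109 without untreated day 2.5 replicate 2, 0.134 without untreated day 2 replicate 1 and 0.119 without untreated day 2 replicate 2. That of Lef1 ended with edgeR adjusted p = 0.0952 without untreated day 2.5 replicate 1, 0.239 without untreated day 2.5 replicate 2, 0.260 without untreated day 2 replicate 1, 0.159 without untreated day 2 replicate 2, 0.0677 without doxycycline day 2.5 replicate 1 and 0.0793 without doxycycline day 2.5 replicate 2. The secreted antagonist Frzb is given above, with losses at 0.106, 0.102, 0.0845 and 0.153 without untreated day 2.5 replicates 1 and 2 and untreated day 2 replicates 1 and 2. Ctnnb1, which encodes beta-catenin, was not called (-0.18 ± 0.08) except without doxycycline day 2 replicate 1 or 2 (edgeR adjusted p = 0.0200 and 0.0206), nor was any of the 9 Frizzled receptor genes tested. The Wnt counts were 4 higher and 1 lower without untreated day 2.5 replicate 2, 6 higher and 0 lower without untreated day 2 replicate 1, 5 higher and 1 lower without untreated day 2 replicate 2 and 16 higher and 2 lower without either doxycycline day 2 library.

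Genes of the Nodal pathway moved both ways. Of 19 genes tested, 5 rose and 3 fell, against 9.22% and 10.3% of all genes, and the median log2 fold change was 0.01. The ligand gene Nodal had 153 and 141 CPM at day 2.5 and 172 and 177 CPM at day 2 and was not called (-0.25 ± 0.10, edgeR adjusted p = 0.0810), although its groups did not overlap. Tdgf1, which encodes the co-receptor Cripto, had 621 and 692 CPM at day 2.5 and 415 and 427 CPM at day 2 (0.64 ± 0.09, edgeR adjusted p = 0.000290). Gdf3, a ligand of the same family that is high in stem cells, had 12.6 and 16.4 CPM at day 2.5 and 30.6 and 27.7 CPM at day 2 (-1.01 ± 0.16, edgeR adjusted p = 0.00102). Tdgf1 was thus higher and Gdf3 lower in both day 2.5 libraries. The feedback inhibitor Lefty2 rose by log2 0.60, while Lefty1, with 31.4 and 20.1 CPM at day 2.5 and 37.6 and 39.2 CPM at day 2, was just short of the threshold (-0.58 ± 0.20, edgeR adjusted p = 0.0528). It was called lower by DESeq2, by limma-voom and with a replicate block, without untreated day 2.5 replicate 1 (edgeR adjusted p = 0.0190) and without either doxycycline day 2 library (0.00409). The call of Lefty2 ended with edgeR adjusted p = 0.154 without untreated day 2.5 replicate 2, 0.0844 without untreated day 2 replicate 1 and 0.126 without untreated day 2 replicate 2. Of the receptors and Smads, Acvr1b, Acvr2a, Smad2, Smad3 and the partner Foxh1 were not called, with log2 fold changes between -0.24 and 0.27, although without doxycycline day 2 replicate 1 or 2 Smad3 was called higher (edgeR adjusted p = 0.0309 and 0.0307) and Nodal lower (0.00761 and 0.00757). Leaving out single libraries gave 2 higher and 1 lower without untreated day 2.5 replicate 2, 2 higher and 2 lower without untreated day 2 replicate 1, 3 higher and 1 lower without untreated day 2 replicate 2 and 6 higher and 5 lower without either doxycycline day 2 library.

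Among FGF ligands the balance shifted. Of 27 FGF and ERK pathway genes tested, 5 rose and 9 fell, against 9.22% and 10.3% of all genes, with a median log2 fold change of -0.06. Fgf4, the ligand of naive and early epiblast cells, had 8.57 and 10.7 CPM at day 2.5 and 27.1 and 31.0 CPM at day 2 (-1.59 ± 0.17, edgeR adjusted p = 6.08e-05). Fgf5 had the values given above and rose (0.67 ± 0.08, edgeR adjusted p = 0.000168). Fgf17, a ligand of the Fgf8 subfamily, had 20.4 and 24.4 CPM at day 2.5 and 10.1 and 8.35 CPM at day 2 (1.28 ± 0.21, edgeR adjusted p = 0.00106). Fgf4 was thus lower, and Fgf5 and Fgf17 higher, in both day 2.5 libraries. Fgf8, which is needed for cells to move away from the streak, had 133 and 159 CPM at day 2.5 and 89.8 and 101 CPM at day 2 (0.61 ± 0.16, edgeR adjusted p = 0.0147), and its call ended with edgeR adjusted p = 0.174 without untreated day 2.5 replicate 2, 0.138 without untreated day 2 replicate 1 and 0.0602 without untreated day 2 replicate 2. Fgf15 had 14.7 and 15.2 CPM at day 2.5 and 27.3 and 26.5 CPM at day 2 (-0.85 ± 0.16, edgeR adjusted p = 0.00234), with 25.7% of its exon length shared with another annotated gene.

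Of the receptors, Fgfr2 had 4.96 and 4.56 CPM at day 2.5 and 13.2 and 11.6 CPM at day 2 (-1.38 ± 0.17, edgeR adjusted p = 0.000168), while Fgfr1 had 271 and 260.3 CPM at day 2.5 and 227 and 237 CPM at day 2 and was not called (0.19 ± 0.09, edgeR adjusted p = 0.126), except without doxycycline day 2 replicate 1 or 2 (edgeR adjusted p = 0.0251 and 0.0249). Readouts of ERK activity did not move as 1 group. Dusp6, a phosphatase that restrains ERK, had 374 and 352 CPM at day 2.5 and 246 and 234 CPM at day 2 (0.60 ± 0.09, edgeR adjusted p = 0.000466). Dusp4, a related phosphatase, had 41.9 and 43.4 CPM at day 2.5 and 66.8 and 61.4 CPM at day 2 (-0.59 ± 0.10, edgeR adjusted p = 0.00106). Dusp6 was higher and Dusp4 lower in both day 2.5 libraries, and both calls held in every fit without 1 library. Spry1, Spry2, Spry4 and Etv4 were not called, with log2 fold changes of 0.12, 0.20, -0.06 and -0.13, though Spry2 was called higher without doxycycline day 2 replicate 1 or 2 (edgeR adjusted p = 0.0317 and 0.0316). The pathway counts were 3 higher and 4 lower without untreated day 2.5 replicate 2, 4 higher and 4 lower without untreated day 2 replicate 1, 3 higher and 6 lower without untreated day 2 replicate 2 and 9 higher and 9 lower without either doxycycline day 2 library.

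In the BMP pathway, 4 of 27 genes tested rose and 4 fell, against 9.22% and 10.3% of all genes, with a median log2 fold change of -0.10. The Id genes are targets of BMP signalling that block basic helix-loop-helix factors, and 3 of 4 fell. Id3 had 31.0 and 26.5 CPM at day 2.5 and 66.1 and 70.6 CPM at day 2 (-1.25 ± 0.18, edgeR adjusted p = 0.000541). Id2 had 31.9 and 27.5 CPM at day 2.5 and 51.4 and 56.3 CPM at day 2 (-0.86 ± 0.12, edgeR adjusted p = 0.000426). Both were lower in both day 2.5 libraries. Id1 also fell, by log2 -0.83 ± 0.18, a call that ended with edgeR adjusted p = 0.0616 without untreated day 2.5 replicate 1 and 0.0649 without untreated day 2 replicate 2, while Id4 was not called (0.17 ± 0.23). The ligand Bmp4 had 7.79 and 8.08 CPM at day 2.5 and 8.53 and 12.9 CPM at day 2 and was not called (-0.43 ± 0.19, edgeR adjusted p = 0.138). Bmp7 had 11.9 and 11.9 CPM at day 2.5 and 6.71 and 6.93 CPM at day 2 (0.80 ± 0.16, edgeR adjusted p = 0.00382), and its call ended with edgeR adjusted p = 0.0518 without untreated day 2 replicate 1. With single libraries left out the counts were 2 higher and 3 lower without untreated day 2.5 replicate 2, 1 higher and 3 lower without untreated day 2 replicate 1 and 3 higher and 2 lower without untreated day 2 replicate 2.

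Most genes of the naive state fell, and with 12 of 18 genes called lower and 2 higher the list had the lowest median of all lists, -1.28 on the log2 scale. Zfp42, which encodes Rex1, had 13.8 and 11.3 CPM at day 2.5 and 32.7 and 35.5 CPM at day 2 (-1.44 ± 0.15, edgeR adjusted p = 4.58e-05). Esrrb, an orphan nuclear receptor of the naive network, had 21.7 and 15.5 CPM at day 2.5 and 42.6 and 41.1 CPM at day 2 (-1.17 ± 0.17, edgeR adjusted p = 0.000448). Nr5a2, a nuclear receptor that drives Pou5f1, had 3.61 and 5.10 CPM at day 2.5 and 13.9 and 13.4 CPM at day 2 (-1.64 ± 0.21, edgeR adjusted p = 0.000245). All 3 were lower in both day 2.5 libraries, by more than 2-fold. Klf2, Tfcp2l1, Tbx3, Dppa5a and Spp1 also fell, by log2 -1.43, -1.01, -0.81, -1.51 and -1.52, and together with Zfp42, Esrrb, Nr5a2 and Fgf4 they make the 9 genes that were called in every fit without 1 library.

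Klf4, Nr0b1 and Dppa3 were already low at day 2. Klf4 had 1.35 and 1.82 CPM at day 2.5 and 2.38 and 4.58 CPM at day 2 (-1.11 ± 0.34, edgeR adjusted p = 0.0322), and its call ended with edgeR adjusted p = 0.176 without untreated day 2.5 replicate 1, 0.107 without untreated day 2.5 replicate 2, 0.381 without untreated day 2 replicate 2, 0.0523 without Flk1-positive doxycycline day 2.5 replicate 1 and 0.0523 without Flk1-positive doxycycline day 2.5 replicate 2. Dppa3, a germline and preimplantation gene, had 0.392 and 1.41 CPM at day 2.5 and 3.55 and 3.87 CPM at day 2 (-2.03 ± 0.53), a call that ended with edgeR adjusted p = 0.114 without untreated day 2.5 replicate 1, 0.0675 without untreated day 2 replicate 1 and 0.0829 without untreated day 2 replicate 2. That of Nr0b1 (-1.38 ± 0.33) ended with edgeR adjusted p = 0.138 without untreated day 2.5 replicate 2 and 0.106 without untreated day 2 replicate 2. Klf5 and Socs3 went the other way. Klf5, a Krüppel-like factor that is also used in endoderm and epithelia, had 57.7 and 63.4 CPM at day 2.5 and 41.8 and 40.7 CPM at day 2 (0.56 ± 0.15, edgeR adjusted p = 0.0178), and its call ended with edgeR adjusted p = 0.160 without untreated day 2.5 replicate 2, 0.0976 without untreated day 2 replicate 1 and 0.117 without untreated day 2 replicate 2. The rise of Socs3, an inhibitor of LIF signalling, by log2 0.80 ended with edgeR adjusted p = 0.374 without untreated day 2.5 replicate 2, 0.0737 without untreated day 2 replicate 1 and 0.242 without untreated day 2 replicate 2. With limma-voom neither Klf4 nor Socs3 was called. The 2 rising naive genes became 0 without untreated day 2.5 replicate 2 or either untreated day 2 library, while the 12 falling genes numbered between 9 and 12 in all 10 fits.

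The core factors divided. Sox2 had 88.8 and 80.6 CPM at day 2.5 and 139.5 and 142 CPM at day 2 (-0.73 ± 0.11, edgeR adjusted p = 0.000476). Pou5f1 had the values given above and fell by less (-0.52 ± 0.13, edgeR adjusted p = 0.0105). Nanog, which is re-expressed in the posterior epiblast of the embryo, had 262 and 242 CPM at day 2.5 and 213 and 219.7 CPM at day 2 and was not called (0.22 ± 0.11, edgeR adjusted p = 0.182). Sox2 and Pou5f1 were lower in both day 2.5 libraries, while both Nanog values of day 2.5 were above those of day 2, and Nanog was called higher without doxycycline day 2 replicate 1 or 2 (edgeR adjusted p = 0.0277 and 0.0273). The Pou5f1 call ended with edgeR adjusted p = 0.137 without untreated day 2.5 replicate 2 and 0.112 without untreated day 2 replicate 2. Utf1 and Dppa4, chromatin-associated genes of pluripotent cells, fell by log2 -0.75 and -0.80, and Sall4 (-0.00 ± 0.08) and Zfp281 (-0.04 ± 0.12) were not called. In all, 1 of 9 core genes rose, which was Tdgf1, and 4 fell, with 2 higher and 5 lower without either doxycycline day 2 library.

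**Figure D3:**
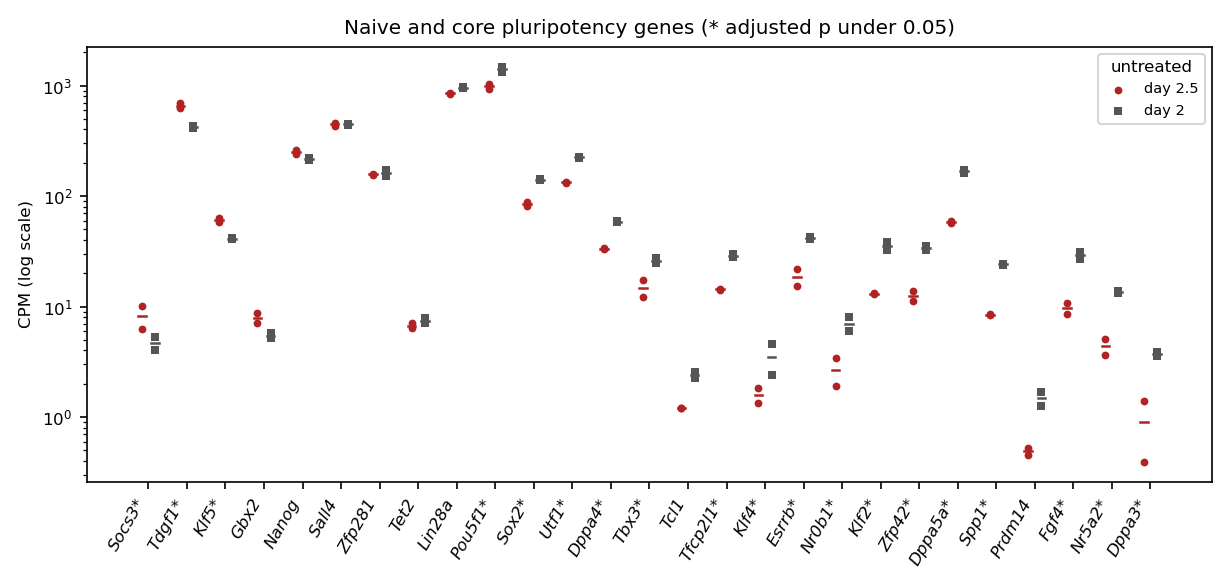
CPM on a log scale for the naive and core pluripotency genes, ordered by log2 fold change, with red circles for the 2 untreated day 2.5 libraries, grey squares for the 2 untreated day 2 libraries and a bar at each mean; an asterisk marks an edgeR adjusted p under 0.05. Squares lie above circles from Pou5f1 to the right, with the widest gaps for Nr5a2, Fgf4 and Dppa3, and below them for Tdgf1 and Klf5.

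Formative genes did not move as 1 group, with 5 of 16 higher, 3 lower and a median of -0.08. Zic2, a zinc-finger factor, had 394 and 418 CPM at day 2.5 and 222 and 215 CPM at day 2 (0.90 ± 0.09, edgeR adjusted p = 1.99e-05). Pou3f1, a POU factor of the formative state, had 37.6 and 33.9 CPM at day 2.5 and 62.6 and 61.9 CPM at day 2 (-0.80 ± 0.13, edgeR adjusted p = 0.000935). Foxd3 had 21.9 and 21.9 CPM at day 2.5 and 35.2 and 35.4 CPM at day 2 (-0.69 ± 0.13, edgeR adjusted p = 0.00319). Zic2 was higher, and Pou3f1 and Foxd3 lower, in both day 2.5 libraries, as Fgf5 was higher. Of the list, there were 3 higher and 3 lower without untreated day 2.5 replicate 1, 2 higher and 2 lower without the other day 2.5 library or either untreated day 2 library, and 3 higher and 2 lower without doxycycline day 2.5 replicate 2.

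Of the DNA methylation genes, 1 of 8 tested changed. Dnmt3l (chr10:78041947-78063622, plus strand), the catalytically inactive partner of the de novo methyltransferases, had 17.6 and 16.0 CPM at day 2.5 and 64.8 and 65.5 CPM at day 2 (-1.96 ± 0.16, edgeR adjusted p = 5.86e-06). The methyltransferase genes Dnmt3a and Dnmt3b were not called with all libraries. Dnmt3a had 316 and 309 CPM at day 2.5 and 368 and 362 CPM at day 2 (-0.23 ± 0.08, edgeR adjusted p = 0.0663), and Dnmt3b 2195 and 2016 CPM at day 2.5 and 2323 and 2304 CPM at day 2 (-0.14 ± 0.08, edgeR adjusted p = 0.266). Both Dnmt3l values of day 2.5 were far below those of day 2, while the values of the methyltransferases lay close together. The 1 falling gene became 3 without either doxycycline day 2 library, and Dnmt3a was then among them (edgeR adjusted p = 0.00434 without replicate 1 and 0.00447 without replicate 2).

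Of 20 epithelial genes, 6 fell and 1 rose, against 10.3% and 9.22% of all genes, with a median of -0.07. Cdh1, which encodes E-cadherin, had 946 and 925 CPM at day 2.5 and 786 and 772 CPM at day 2 and was not called (0.26 ± 0.09, edgeR adjusted p = 0.0570), but it was called higher by DESeq2, by limma-voom, with a replicate block and without doxycycline day 2 replicate 1 or 2 (edgeR adjusted p = 0.000777 and 0.000789). Grhl2, an epithelial grainyhead factor, had 49.95 and 40.7 CPM at day 2.5 and 74.8 and 73.9 CPM at day 2 (-0.71 ± 0.11, edgeR adjusted p = 0.000734). Krt19 had 6.18 and 6.96 CPM at day 2.5 and 13.9 and 14.3 CPM at day 2 (-1.10 ± 0.18, edgeR adjusted p = 0.00122), and the desmosomal gene Pkp2 fell by log2 -0.58. These 3 were lower in both day 2.5 libraries and called in every fit without 1 library. On the mesenchymal side, 3 of 16 genes rose and 2 fell. Snai1 is given above. Vim, the intermediate filament gene of mesenchyme, had 115 and 107 CPM at day 2.5 and 159 and 169 CPM at day 2 (-0.56 ± 0.10, edgeR adjusted p = 0.00173), and Tgfb2 1.57 and 1.99 CPM at day 2.5 and 6.15 and 5.46 CPM at day 2 (-1.70 ± 0.31, edgeR adjusted p = 0.00201). Vim and Tgfb2 were thus lower at day 2.5 while Snai1 was higher. Twist1, another repressor of epithelial genes, rose by log2 0.70 ± 0.16, a call that ended with edgeR adjusted p = 0.0896 without untreated day 2.5 replicate 2 and 0.0945 without untreated day 2 replicate 1. Epithelial counts were 0 higher and 3 lower without untreated day 2.5 replicate 2 or untreated day 2 replicate 2, 0 higher and 5 lower without untreated day 2 replicate 1 and 2 higher and 7 lower without either doxycycline day 2 library, and the mesenchymal counts 1 higher and 2 lower without untreated day 2.5 replicate 2.

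Of 26 genes of cell movement at gastrulation, 5 rose and none fell by edgeR, against 9.22% and 10.3% of all genes, with a median of 0.04. In the falling direction 2 were lower at an unadjusted p under 0.05, none by DESeq2 and 1 by limma-voom. The rising genes included both the ligand Apln and the receptor Aplnr of the apelin system, which guides mesoderm migration. Aplnr had 21.0 and 21.7 CPM at day 2.5 and 12.0 and 12.7 CPM at day 2 (0.79 ± 0.11, edgeR adjusted p = 0.000493). Apln had 116 and 99.9 CPM at day 2.5 and 74.9 and 73.4 CPM at day 2 (0.54 ± 0.14, edgeR adjusted p = 0.0171). The groups did not overlap for either gene, but the call of Apln ended with edgeR adjusted p = 0.147 without untreated day 2.5 replicate 1, 0.0643 without untreated day 2.5 replicate 2, 0.109 without untreated day 2 replicate 1 and 0.124 without untreated day 2 replicate 2. The other ligand of the receptor, Apela, had 47.6 and 51.3 CPM at day 2.5 and 45.0 and 48.3 CPM at day 2 and was not called (0.09 ± 0.12, edgeR adjusted p = 0.655). The ephrin receptors Epha1 and Ephb2 rose by log2 0.39 and 0.64, the first with loss of the call at edgeR adjusted p = 0.0621 without untreated day 2 replicate 1 and 0.0613 without untreated day 2 replicate 2, the second at edgeR adjusted p = 0.0509 without untreated day 2 replicate 1. The counts were 3 higher and 0 lower without untreated day 2.5 replicate 2, 1 higher and 0 lower without untreated day 2 replicate 1, 2 higher and 0 lower without untreated day 2 replicate 2 and 8 higher and 3 lower without either doxycycline day 2 library.

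Genes of blood and endothelium were low at both days, and several fell. Of 25 tested, 10 fell and 2 rose, the median was -0.93, and the summed level ran from 112 to 114 CPM at day 2.5 and from 157 to 165 CPM at day 2. Kdr (chr5:75932827-75978458, minus strand), which encodes Flk1, the receptor of blood and endothelial precursors, had 7.05 and 7.42 CPM at day 2.5 and 28.5 and 29.1 CPM at day 2 (-1.99 ± 0.17, edgeR adjusted p = 7.99e-06). Etv2 (chr7:30633616-30635852, minus strand) had 6.57 and 7.50 CPM at day 2.5 and 15.8 and 18.1 CPM at day 2 (-1.26 ± 0.14, edgeR adjusted p = 7.28e-05). Its counts give no split between the endogenous gene and the uninduced construct, so the part of each was not tested. Tek, an angiopoietin receptor gene, had 1.13 and 1.33 CPM at day 2.5 and 4.72 and 4.69 CPM at day 2 (-1.93 ± 0.25, edgeR adjusted p = 0.000226). All 3 were lower in both day 2.5 libraries and called in every fit without 1 library. Pecam1, which is expressed by naive stem cells as well as by endothelium, fell by log2 -1.60, and Tal1, a master factor of blood, by -1.34, with 0.827 and 1.24 CPM at day 2.5 and 2.25 and 3.11 CPM at day 2. Runx1 (0.18 ± 0.24), Flt1 (0.01 ± 0.14) and Egfl7 (-0.11 ± 0.11) were not called. Erg, Fli1 and Tie1 stood below 1 CPM in every untreated library. The list had 1 higher and 8 lower without untreated day 2.5 replicate 1, 0 higher and 6 lower without untreated day 2.5 replicate 2, 0 higher and 7 lower without either untreated day 2 library and 1 higher and 9 lower without either doxycycline day 2.5 library or either Flk1-positive doxycycline day 2.5 library.

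Definitive endoderm genes moved both ways, with 6 of 14 higher, 3 lower and a median of 0.16. The members named here are from those that rose, and the 3 that fell are not named. Apart from Foxa2, Trh, a neuropeptide gene known from early endoderm, had 782 and 749 CPM at day 2.5 and 518 and 547 CPM at day 2 (0.52 ± 0.09, edgeR adjusted p = 0.00165). Foxa1 had 3.44 and 2.69 CPM at day 2.5 and 0.780 and 1.31 CPM at day 2 (1.57 ± 0.34, edgeR adjusted p = 0.00589), with the call lost at edgeR adjusted p = 0.0958 without untreated day 2 replicate 1. Both genes were higher in both day 2.5 libraries. The endoderm list had 4 higher and 1 lower without untreated day 2.5 replicate 1, 3 higher and 1 lower without untreated day 2.5 replicate 2 or untreated day 2 replicate 2 and 2 higher and 1 lower without untreated day 2 replicate 1. In the paraxial list, 1 of 11 genes rose and 2 fell. Pcdh8, a protocadherin of the streak and presomitic mesoderm, had 24.1 and 28.1 CPM at day 2.5 and 13.1 and 13.9 CPM at day 2 (0.96 ± 0.16, edgeR adjusted p = 0.00135), while Cyp26a1, a cytochrome P450 that inactivates retinoic acid, had 24.5 and 26.5 CPM at day 2.5 and 43.6 and 44.3 CPM at day 2 (-0.78 ± 0.13, edgeR adjusted p = 0.00122). Paraxial counts were 1 higher and 1 lower without untreated day 2.5 replicate 2 or untreated day 2 replicate 1 and 2 higher and 2 lower without either doxycycline day 2 library. Of 11 Hox and Cdx genes tested, Meis2 was the 1 called, with 35.9 and 41.9 CPM at day 2.5 and 22.6 and 17.6 CPM at day 2 (0.95 ± 0.17, edgeR adjusted p = 0.00151), and 2 were called without either doxycycline day 2 library. A further 8 were under the filter on low counts.

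Marker lists of cell types outside the epiblast and streak are given beside the 9.22% of all genes that rose and the 10.3% that fell. Of 8 fibroblast genes tested, 2 rose and 4 fell, and the summed level ran from 57.0 to 58.8 CPM at day 2.5 and from 61.3 to 70.1 CPM at day 2. Acta2, a gene of contractile fibroblasts and smooth muscle, had 3.96 and 5.01 CPM at day 2.5 and 13.9 and 16.2 CPM at day 2 (-1.74 ± 0.24, edgeR adjusted p = 0.000421). Of 9 trophoblast genes none rose, also at an unadjusted p under 0.05 and by DESeq2 and limma-voom, and 3 fell (46.3 to 47.1 CPM at day 2.5, 56.0 to 57.6 CPM at day 2), and of 3 leukocyte genes 2 fell (11.7 to 12.7 CPM at day 2.5, 18.8 to 19.1 CPM at day 2). Of 15 extraembryonic endoderm genes, 1 rose and 3 fell. Lama1, a laminin of basement membranes, had 7.53 and 7.79 CPM at day 2.5 and 21.6 and 15.3 CPM at day 2 (-1.28 ± 0.17, edgeR adjusted p = 0.000234), and Afp and Ttr had 0 and 0 counts at day 2.5 and 12 and 20 at day 2. Acta2 and Lama1 are from the members that fell, and the rising members, 2 for fibroblasts and 1 for extraembryonic endoderm, are not named here. The part of these cell types in the other results was not tested. The small counts of called genes changed when single libraries were left out. The fibroblast counts were 2 higher and 1 lower without untreated day 2.5 replicate 1 or untreated day 2 replicate 1, 1 higher and 1 lower without untreated day 2.5 replicate 2 and 0 higher and 2 lower without untreated day 2 replicate 2. The trophoblast counts were 0 higher and 1 lower without untreated day 2.5 replicate 1, untreated day 2 replicate 1 or either Flk1-positive doxycycline day 2.5 library and 0 higher and 0 lower without untreated day 2.5 replicate 2 or untreated day 2 replicate 2. For leukocytes they were 0 higher and 1 lower without untreated day 2.5 replicate 1 or untreated day 2 replicate 2 and 0 higher and 0 lower without untreated day 2.5 replicate 2 or untreated day 2 replicate 1. For extraembryonic endoderm they were 1 higher and 1 lower without untreated day 2.5 replicate 1, 0 higher and 1 lower without untreated day 2.5 replicate 2 or untreated day 2 replicate 1, 2 higher and 4 lower without either doxycycline day 2 library and 2 higher and 3 lower without either Flk1-positive doxycycline day 2.5 library.

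Neural, cardiac and germ cell lists completed the check. Of 8 neuroectoderm genes tested, 2 rose and 1 fell, and the summed level ran from 454 to 486 CPM at day 2.5 and from 368 to 378 CPM at day 2. Tubb3, a neuronal tubulin, had 22.4 and 24.5 CPM at day 2.5 and 35.9 and 35.1 CPM at day 2 (-0.60 ± 0.12, edgeR adjusted p = 0.00418). Of 15 cardiac and lateral mesoderm genes none rose by edgeR, DESeq2 or limma-voom and 1 was higher at an unadjusted p under 0.05, while 5 fell, among them Tbx3, which also belongs to the naive list and had 17.4 and 12.3 CPM at day 2.5 and 27.4 and 24.6 CPM at day 2. Of 11 germ cell genes, 1 rose and 5 fell. Ifitm3, a gene of early germ cells, had 20.5 and 18.3 CPM at day 2.5 and 38.5 and 35.5 CPM at day 2 (-0.93 ± 0.14, edgeR adjusted p = 0.000605). Tubb3, Tbx3 and Ifitm3 were lower in both day 2.5 libraries. They are from the members that fell, and the rising members, 2 for neuroectoderm and 1 for germ cells, are not named here. Neuroectoderm counts were 0 higher and 1 lower without untreated day 2.5 replicate 2 or untreated day 2 replicate 2 and 1 higher and 1 lower without untreated day 2 replicate 1. Those of cardiac and lateral mesoderm were 0 higher and 1 lower without untreated day 2.5 replicate 2 or untreated day 2 replicate 2 and 0 higher and 2 lower without untreated day 2 replicate 1. Those of germ cells were 1 higher and 2 lower without either untreated day 2.5 library, 0 higher and 1 lower without untreated day 2 replicate 1 and 1 higher and 1 lower without untreated day 2 replicate 2.

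Most tested targets of p53, the sensor of DNA damage and stress, fell at day 2.5. Of 16 tested, 10 fell and 1 rose, against 10.3% and 9.22% of all genes, and the median was -0.55. Mdm2, the ligase that degrades p53, had 100.1 and 105 CPM at day 2.5 and 157 and 158 CPM at day 2 (-0.62 ± 0.09, edgeR adjusted p = 0.000463). Cdkn1a, the cell cycle inhibitor p21, had 77.4 and 71.4 CPM at day 2.5 and 116 and 117 CPM at day 2 (-0.65 ± 0.10, edgeR adjusted p = 0.000553). Ccng1 and Sesn2 fell by log2 -0.53 and -0.58. The exception was Pmaip1, which encodes the death factor Noxa, with 48.7 and 58.5 CPM at day 2.5 and 31.1 and 26.8 CPM at day 2 (0.89 ± 0.14, edgeR adjusted p = 0.00102). For these 5 genes the groups did not overlap and the call was made in every fit without 1 library. The list had 1 higher and 4 lower without untreated day 2.5 replicate 2, 1 higher and 6 lower without untreated day 2 replicate 1 and 2 higher and 10 lower without either doxycycline day 2 library.

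Of 23 cell cycle genes, 2 were higher and 5 lower, against 9.22% and 10.3% of all genes, with a median log2 fold change of -0.04. Cdc20, the activator of the anaphase-promoting complex, had 221 and 181 CPM at day 2.5 and 368 and 369.7 CPM at day 2 (-0.88 ± 0.13, edgeR adjusted p = 0.000718). Ccnb1, a mitotic cyclin, fell by log2 -0.59 ± 0.09 (edgeR adjusted p = 0.000897). Cdkn1b, which encodes the inhibitor p27, had 75.9 and 90.0 CPM at day 2.5 and 51.0 and 50.3 CPM at day 2 (0.71 ± 0.10, edgeR adjusted p = 0.000493). Cdc20 and Ccnb1 were lower and Cdkn1b higher in both day 2.5 libraries. Other mitotic genes of the list are not named here. The cell cycle counts were 1 higher and 4 lower without untreated day 2.5 replicate 1 or either doxycycline day 2.5 library, 1 higher and 3 lower without untreated day 2.5 replicate 2, 1 higher and 2 lower without either untreated day 2 library and 2 higher and 9 lower without either doxycycline day 2 library. Of 22 glycolysis and hypoxia genes, 3 rose and 5 fell, against the same 9.22% and 10.3%. Pgam1, a phosphoglycerate mutase, had 49.4 and 46.0 CPM at day 2.5 and 79.1 and 86.0 CPM at day 2 (-0.79 ± 0.12, edgeR adjusted p = 0.000712), the 1 call of the list that was made in every fit without 1 library. Counts there were 1 higher and 4 lower without untreated day 2.5 replicate 1, 1 higher and 1 lower without untreated day 2.5 replicate 2, 0 higher and 2 lower without untreated day 2 replicate 1 and 0 higher and 3 lower without untreated day 2 replicate 2.

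Of 15 actin and other genes that depend on the factor SRF, 6 fell and 3 rose. Acta1 had 2.65 and 1.91 CPM at day 2.5 and 7.32 and 8.08 CPM at day 2 (-1.75 ± 0.30, edgeR adjusted p = 0.00136), and Tagln, a calponin-related actin-binding gene, 49.7 and 53.9 CPM at day 2.5 and 80.6 and 88.1 CPM at day 2 (-0.70 ± 0.14, edgeR adjusted p = 0.00368). Another annotated gene covers 67.9% of the exon length of Tagln. Ccn2, a matricellular gene that also responds to YAP, had 67.2 and 80.3 CPM at day 2.5 and 46.5 and 48.8 CPM at day 2 (0.63 ± 0.11, edgeR adjusted p = 0.00156). Acta1 and Tagln were lower, and Ccn2 higher, in both day 2.5 libraries. Of 17 immediate early genes, 5 rose and 2 fell. Zfp36, which promotes decay of short-lived mRNAs, had 44.2 and 37.9 CPM at day 2.5 and 20.9 and 16.3 CPM at day 2 (1.14 ± 0.16, edgeR adjusted p = 0.000476), and Jun 32.4 and 39.7 CPM at day 2.5 and 21.7 and 20.8 CPM at day 2 (0.76 ± 0.13, edgeR adjusted p = 0.00137). Both were higher in both day 2.5 libraries. The SRF and actin counts were 1 higher and 3 lower without untreated day 2.5 replicate 2 and 1 higher and 4 lower without either untreated day 2 library. The immediate early counts were 3 higher and 2 lower without untreated day 2.5 replicate 1, 2 higher and 0 lower without untreated day 2.5 replicate 2, 3 higher and 0 lower without untreated day 2 replicate 1, 2 higher and 1 lower without untreated day 2 replicate 2 and 5 higher and 1 lower without either doxycycline day 2.5 library or either Flk1-positive doxycycline day 2.5 library.

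Of 14 Notch pathway genes tested, 3 rose and 3 fell, against 9.22% and 10.3% of all genes. Hes1, a target of Notch and other signals, had 77.1 and 82.4 CPM at day 2.5 and 48.2 and 50.9 CPM at day 2 (0.69 ± 0.10, edgeR adjusted p = 0.000493), with no overlap between the days. The counts for the pathway were 2 higher and 1 lower without untreated day 2.5 replicate 1, 2 higher and 0 lower without untreated day 2.5 replicate 2 and 1 higher and 0 lower without untreated day 2 replicate 1. Of 16 genes of stress response and serine metabolism, 1 rose and 5 fell, and the p53 target Sesn2 was the 1 call made in every fit without 1 library, with 124 and 125 CPM at day 2.5 and 184 and 189 CPM at day 2. Counts there were 1 higher and 3 lower without untreated day 2.5 replicate 1, 0 higher and 1 lower without untreated day 2.5 replicate 2 or untreated day 2 replicate 2, 0 higher and 2 lower without untreated day 2 replicate 1 and 2 higher and 5 lower without either doxycycline day 2 library.

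**Figure D4:**
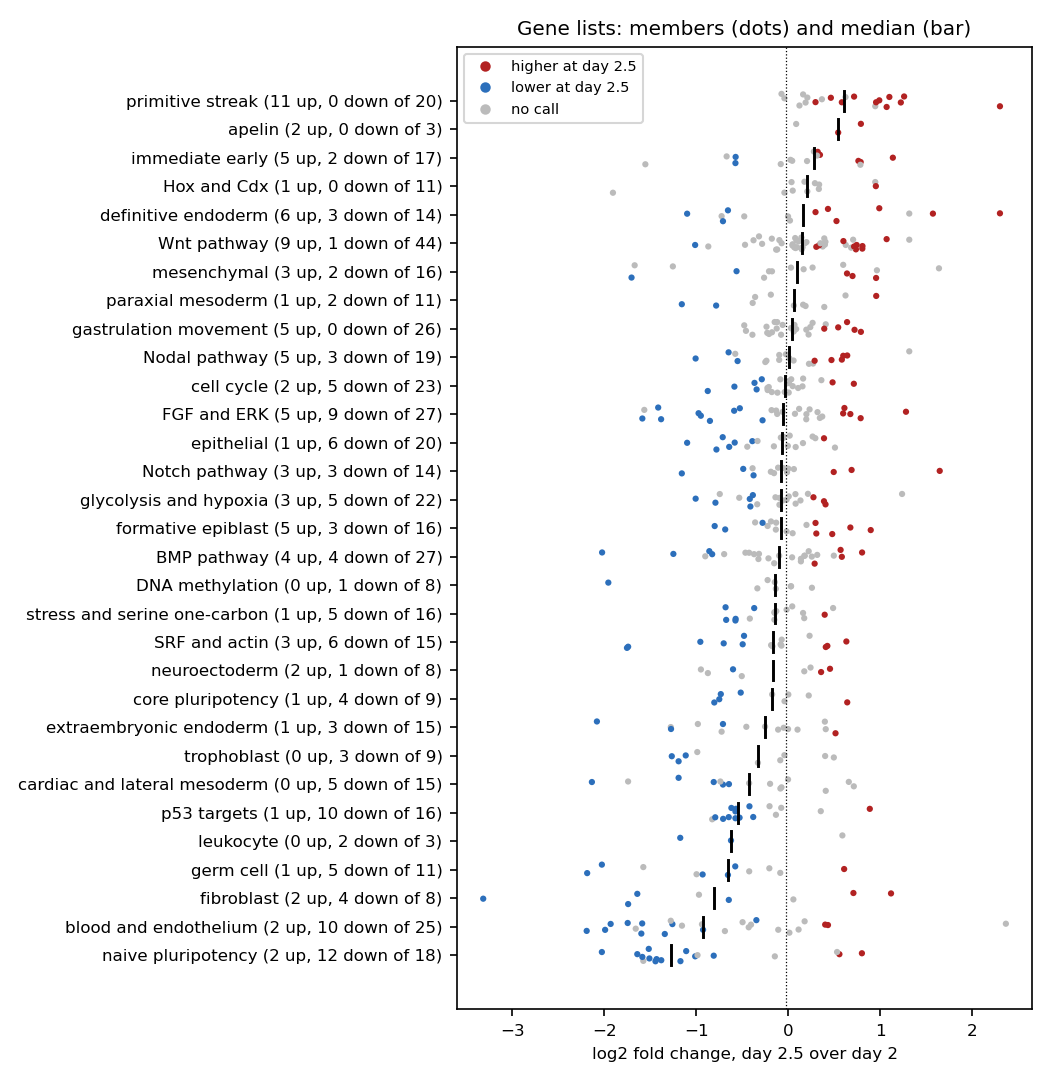
Log2 fold change of day 2.5 over day 2 for every tested gene of the 31 lists, with 1 dot per gene, a bar at each list's median and a dotted line at the median of all genes tested (-0.023). The primitive streak list is at the top with a median of 0.60, and the naive pluripotency list at the bottom with -1.28.

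Outside the lists, the largest rises among genes that reached 5 CPM in the higher group were, after Foxa2, in genes of varied function. The homeobox factor Otx1 had 6.05 and 6.46 CPM at day 2.5 and 2.38 and 1.64 CPM at day 2 (1.63 ± 0.34, edgeR adjusted p = 0.00454), and the call ended with edgeR adjusted p = 0.0544 without untreated day 2.5 replicate 2 and 0.0704 without untreated day 2 replicate 2. Ptms, which encodes the small acidic nuclear protein parathymosin, had 404 and 475 CPM at day 2.5 and 165 and 169.9 CPM at day 2 (1.39 ± 0.10, edgeR adjusted p = 1.03e-06). Maml3, a Notch co-activator gene, had 15.4 and 14.9 CPM at day 2.5 and 5.07 and 6.17 CPM at day 2 (1.44 ± 0.22, edgeR adjusted p = 0.000711). The groups did not overlap for any of the 15 genes in this set, by the rule that chose it. Fkbp2, a prolyl isomerase of the endoplasmic reticulum, rose by log2 1.33, the mitochondrial carrier Slc25a23 by 1.31, the sodium channel subunit Scn2b by 1.41 and the synaptic scaffold Shank1 by 1.33. Those 4 calls were made in every fit without 1 library. Tomm6, a subunit of the outer mitochondrial translocase, rose by 1.42, but 84.2% of its exon length overlaps another annotated gene, so its reads cannot be assigned with certainty. The forkhead gene Foxp2, the opioid receptor Oprd1, the calcium-binding Hrc and the presynaptic Pclo rose by 1.76, 1.61, 1.59 and 1.32. Their calls ended when 1 library was left out, that of Foxp2 with edgeR adjusted p = 0.0597 without untreated day 2.5 replicate 1, 0.120 without untreated day 2.5 replicate 2, 0.139 without untreated day 2 replicate 1 and 0.0764 without untreated day 2 replicate 2. That of Oprd1 ended with edgeR adjusted p = 0.0550 without untreated day 2.5 replicate 1, 0.0793 without untreated day 2.5 replicate 2, 0.111 without untreated day 2 replicate 1 and 0.0667 without untreated day 2 replicate 2. That of Hrc ended with edgeR adjusted p = 0.0583 without untreated day 2.5 replicate 2 and 0.0756 without untreated day 2 replicate 1. That of Pclo ended with edgeR adjusted p = 0.141 without untreated day 2.5 replicate 2, 0.111 without untreated day 2 replicate 1 and 0.0744 without untreated day 2 replicate 2.

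The 15 largest falls by the same rule were also in genes of varied function. Morc1, which silences transposons in male germ cells, had 3.31 and 2.40 CPM at day 2.5 and 15.4 and 14.3 CPM at day 2 (-2.38 ± 0.21, edgeR adjusted p = 8.28e-06). Ooep, an oocyte gene, had 2.13 and 1.08 CPM at day 2.5 and 7.67 and 7.58 CPM at day 2 (-2.25 ± 0.35, edgeR adjusted p = 0.000807). Fbxo15, an F-box gene used as a reporter of pluripotency, had 3.74 and 3.07 CPM at day 2.5 and 12.6 and 15.7 CPM at day 2 (-2.05 ± 0.24, edgeR adjusted p = 0.000110). For these genes every day 2.5 library was below every day 2 library. Rbmxl2, a testis RNA-binding gene, fell by log2 -1.90. The nucleoside transporter Slc28a1 fell by -2.75, the folate receptor Folr1 by -2.27, the vitamin C transporter Slc23a1 by -1.85, the potassium channel Kcnh3 by -2.47 and the surface antigen Gpa33 by -2.07. The steroid dehydrogenase Hsd17b14 changed by -2.30, Plac8 by -2.01 and the quinone reductase Nqo1 by -1.82. Pde2a, a phosphodiesterase, changed by -1.87, with 64.3% of its exon length shared with another annotated gene. All 15 falling genes of this set, which also holds Kdr and Dnmt3l, were called in every fit without 1 library.

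The same step from day 2 to day 2.5 was compared with that of doxycycline-treated embryoid bodies, in which Etv2 is induced. With doxycycline 22.9% of all genes tested rose and 23.1% fell. Both steps were fitted in 1 model with no shared library. Of the 1342 genes that rose without doxycycline, 879 (65.5%) rose and 54 (4.02%) fell with it, and of the 1494 that fell without it, 1102 (73.8%) fell and 97 (6.49%) rose with it. The difference between the 2 changes, doxycycline minus untreated, was called positive for 1000 genes (6.87% of all tested) and negative for 763 (5.24%). Among the genes that rose without doxycycline it was called for 237 (17.7%), and among those that fell for 260 (17.4%). The untreated change that chose these genes is itself part of the difference, with the opposite sign. Their shares are therefore not independent of that choice and cannot be set against the 6.87% and 5.24% of all genes. The counts over all genes rested on single libraries, as 2115 and 1954 genes were called without doxycycline day 2 replicate 2, 1381 and 1324 without its replicate 1, and 559 and 278 without untreated day 2 replicate 1. They were 641 and 431 without untreated day 2.5 replicate 2, 746 and 495 without its replicate 1, 615 and 346 without untreated day 2 replicate 2, 591 and 439 without doxycycline day 2.5 replicate 1, and 562 and 317 without its replicate 2. With length and GC trends removed they were 1020 and 2080. The 2 doxycycline day 2 libraries differed along gene length, with a rank correlation of -0.47 across genes between exon length and their difference.

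The 3 leading streak genes were higher at day 2.5 without doxycycline and not higher with it. Mixl1 changed by log2 -1.94 ± 0.10 with doxycycline and 1.22 ± 0.10 without, a difference of -3.16 ± 0.14 (edgeR adjusted p = 2.26e-09). For T the changes were -0.23 ± 0.08 with and 1.10 ± 0.08 without doxycycline, a difference of -1.32 ± 0.12 (edgeR adjusted p = 3.16e-06). Eomes changed by -0.23 ± 0.10 with and 1.26 ± 0.11 without doxycycline, a difference of -1.49 ± 0.15 (edgeR adjusted p = 9.30e-06). The other largest negative differences were those of Tgm3, Fgf17, Frzb, Nefl and Apln. Kdr and Gata2, which belong to the blood and endothelial list, differed in the other direction. Kdr changed by 1.74 ± 0.14 with and -1.99 ± 0.17 without doxycycline, a difference of 3.73 ± 0.22 (edgeR adjusted p = 6.20e-08), and Gata2, a blood factor, by 5.21 ± 0.16 with and -0.93 ± 0.24 without doxycycline, a difference of 6.14 ± 0.29 (edgeR adjusted p = 4.19e-09). The untreated call of Gata2 was not made by limma-voom and ended with edgeR adjusted p = 0.159 without untreated day 2.5 replicate 2 and 0.120 without untreated day 2 replicate 1, and those of Frzb and Apln are given above (edgeR adjusted p = 0.106 without untreated day 2.5 replicate 1, 0.102 without untreated day 2.5 replicate 2, 0.0845 without untreated day 2 replicate 1 and 0.153 without untreated day 2 replicate 2 for Frzb, and edgeR adjusted p = 0.147 without untreated day 2.5 replicate 1, 0.0643 without untreated day 2.5 replicate 2, 0.109 without untreated day 2 replicate 1 and 0.124 without untreated day 2 replicate 2 for Apln). For Zfp42 the difference was -0.15 ± 0.21 (edgeR adjusted p = 0.696) and for Dnmt3l -0.13 ± 0.22 (edgeR adjusted p = 0.765), which did not pass the threshold.

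**Figure D5:**
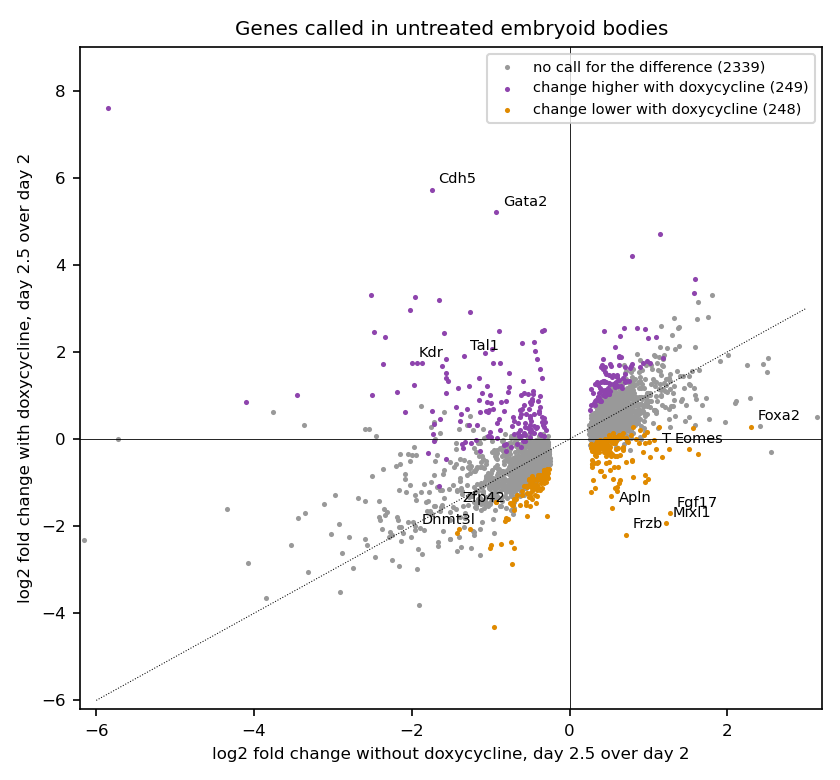
Genes called in untreated embryoid bodies, with the log2 fold change of day 2.5 over day 2 without doxycycline on the x axis and with doxycycline on the y axis; the dotted line marks equal change, and purple and orange points are the 249 and 248 genes whose change with doxycycline was called higher and lower. Mixl1, Fgf17, Frzb and Apln lie in the lower right, Cdh5, Gata2, Kdr and Tal1 in the upper left, and 7 genes lie outside the range drawn.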

How the data were processed

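RNA-seq counts per gene were analysed as deposited by the authors. Per the submitters' processing notes, the tools were TopHat, HTSeq and DESeq2 and the genome build was mm10; versions, gene annotation, strand setting and the treatment of reads with several positions were not given in the sources used here, so reads of overlapping, antisense or near-identical genes cannot be told apart. The deposited table has 23429 entries, of which 92 spike-in entries with 0 counts were left out, and 4811 genes had 0 counts everywhere.

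Counts were fitted in R 4.3.3 with edgeR 4.0.16 by a quasi-likelihood model with 1 mean for each of 5 groups over all 10 libraries (TMM scaling, filterByExpr with a minimum count of 10 and total of 15, 5 residual degrees of freedom, common biological coefficient of variation 0.1). Untreated day 2.5 was tested against untreated day 2, and the interaction tested the change with doxycycline minus that without. Log2 fold changes are given ± SE from the quasi-likelihood F statistic. No replicates were identical. Alternatives were DESeq2 1.42.0, limma-voom (limma 3.58.1), DESeq2 size factors, no filter, thinned counts, the compared libraries alone, a replicate block and each library left out. Removal of trends with exon length and GC content, and leaving out both doxycycline day 2 libraries, were added after seeing the data. On simulated data the share recovered of genes changed by 1.5-, 2- and 4-fold was 53.7%, 73.1% and 86.4% between the days, with 5.96% of calls false (14236 genes), and 19.4%, 58.2% and 74.2% for the interaction, with 2.88% false (14242 genes). The simulated libraries were independent, with few changed genes, in 1 group only, and no trend with gene length. These shares hold for that setting and are not the rate of false calls in the results above.

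The 31 gene lists hold 489 genes, all found, and 7 had an older symbol there. The comparison, lists and rule for named genes were chosen with earlier results of these data known. Named were the 15 genes each way of largest change among called genes that reached 5 CPM in the higher group and did not overlap between the days; any member of the pluripotency, streak, signalling, apelin and blood lists; up to 6 members with the smallest p, and members near 0, of the other lists; the 6 largest interactions each way past both thresholds; and Etv2 and Kdr. Not every gene that this rule names is reported here. Lists are described by counts and medians without a set test. Positions are from GENCODE on mm10, and promoters from RefSeq on GRCm38.p6.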

Additional observations from a re-analysis of the deposited data

Results flagged for a closer look

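The change from day 2 to day 2.5 differed between doxycycline-treated and untreated embryoid bodies, by the interaction test in edgeR, for 1000 genes in the positive and 763 in the negative direction. The largest positive log2 differences, doxycycline minus untreated, were 13.44 for Tal2, 7.47 for Cdh5, 6.14 for Gata2, 5.81 for Vsig2, 5.23 for Nxf7 and 4.99 for Rcsd1. Tal2 had 0 counts in the untreated day 2.5 libraries and 12 in the untreated day 2 libraries, so its fitted value depends on the prior count and is not a bound. Cdh5 had 8 counts at day 2.5 and 24 at day 2 without doxycycline. On the same terms Vsig2 had 2 at day 2.5 and 11 at day 2, Nxf7 10 at day 2.5 and 35 at day 2, and Rcsd1 4 at day 2.5 and 15 at day 2. The largest negative differences were -3.36 for Tgm3, -3.16 for Mixl1, -2.97 for Fgf17, -2.91 for Frzb, -2.14 for Nefl and -2.13 for Apln. Another annotated gene covers 32.8% of the exon length of Nefl. The spread of the doxycycline day 2 pair, at a chi-square value per gene of 32, enters all of these differences, and its part in them was not tested.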

How the results depend on the processing

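No called gene that the text names changed sign under any alternative run. The 1342 rising and 1494 falling genes numbered 1221 to 1769 and 1411 to 1666 with DESeq2, limma-voom, DESeq2 size factors, no filter on low counts or counts thinned to the smallest total. With only the 4 compared libraries fitted they were 2299 and 2276, with length and GC trends removed 2068 and 1910, and without both doxycycline day 2 libraries 2267 and 2504. Leaving out 1 library at a time gave 358 to 2266 rising and 322 to 2536 falling genes. For the difference between the changes with and without doxycycline, the 1000 positive genes ranged from 559 to 2115 and the 763 negative genes from 278 to 1954 with 1 library left out, and with trends removed 2080 were negative. The cause was not tested. Same-numbered replicates did not deviate together across genes between the untreated days (r = 0.0317), and the main fit used no pairing. With 2 libraries a group, this cannot tell whether same-numbered samples shared a culture or a batch. With a replicate block 1453 genes rose and 1641 fell, and 1082 and 859 differences were called.

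List counts moved by more than 1.5 times under other fits as well, given here with the count of the text in brackets. With only the compared libraries, rising genes were 18 (9) for Wnt, 10 (5) for FGF and ERK, 10 (5) for movement, 8 (5) for immediate early, 4 (1) for Hox and Cdx, 3 (1) for epithelial, for extraembryonic endoderm and for stress, 2 (1) for core, p53 and paraxial, 1 (2) for blood and 1 (0) for cardiac lists. Falling genes were 8 (5) for the cell cycle, 5 (3) for Nodal, 3 (1) for DNA methylation, 3 (0) for movement and 1 (2) for immediate early. Without both doxycycline day 2 libraries, 17 Wnt, 9 FGF and ERK, 8 movement, 2 Hox and Cdx, epithelial, extraembryonic endoderm, stress, core, p53 and paraxial genes and 1 (0) DNA methylation gene rose, and 9 cell cycle, 5 Nodal, 3 DNA methylation, 3 movement and 2 (1) Wnt genes fell. With trends removed, 14 Wnt, 3 epithelial, 3 stress, 2 core, extraembryonic endoderm and p53 genes rose, and 2 DNA methylation, 1 movement and 1 immediate early gene fell. With no filter, 14 Wnt, 8 movement, 3 Hox and Cdx, 3 extraembryonic endoderm, 2 epithelial and 1 cardiac gene rose and 2 DNA methylation genes fell. With limma-voom, 6 (10) blood genes fell and 0 (2) rose, 1 (2) naive and 2 epithelial genes rose, and 1 leukocyte, movement and immediate early gene each fell. With DESeq2 or the block, 2 epithelial and 2 extraembryonic endoderm genes rose and 1 immediate early gene fell; with size factors 1 immediate early gene fell; and with thinned counts 2 extraembryonic endoderm genes rose and 3 (5) germ cell genes fell. Depth limits genes of a few counts, for which a count of 0 allows up to 3.

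Of the named genes, limma-voom did not call Cdh5, Gata2, Klf4, Socs3, Nxf7, Rcsd1 or Vsig2, DESeq2 did not call Rcsd1 or Vsig2, the fit of the compared libraries did not call Cdh5 or Nxf7, and thinned counts did not call Nxf7, Rcsd1 or Vsig2. Genes not called in the text were called with only the compared libraries (Cdh1, Cdx1, Dnmt3a, Evx1, Fgfr1, Lefty1, Nanog, Nodal, Smad3 and Spry2), without both doxycycline day 2 libraries (Cdh1, Ctnnb1, Dnmt3a, Fgfr1, Lefty1, Nanog, Nodal, Smad3 and Spry2), with trends removed (Cdh1, Dnmt3a, Lefty1, Nanog, Smad3 and Spry2), with no filter (Cdh1, Cdx1 and Lefty1) and with DESeq2, limma-voom or the replicate block (Cdh1 and Lefty1). The sign changed for 11 named genes that were not called. With trends removed the log2 fold change was 0.031 for Cdx2, -0.0084 for Flt1, 0.0050 for Mesp1 and 0.021 for Sall4. Sall4 was 0.018 in the compared libraries, 0.014 with DESeq2 and with size factors, and 0.024 with no filter. With 1 library left out the log2 fold changes ran from -0.030 to 0.051 for Acvr1b, -0.24 to 0.13 for Cdx2, -4.88 to 0.50 for Erg, -0.089 to 0.11 for Flt1, -0.021 to 0.14 for Foxh1, -0.13 to 0.42 for Id4, -0.18 to 0.040 for Mesp1, -0.19 to 0.48 for Msgn1, -0.047 to 0.045 for Sall4, -0.19 to 0.083 for Spry4 and -0.13 to 0.048 for Zfp281.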

Other observations

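Several large gene families outside the lists were looked at after their values were seen, and no test was made on them. Over all genes tested, 10.3% were lower and 9.22% higher. Of 82 ribosomal protein genes tested, 26 were lower and 5 higher at day 2.5, with a median log2 fold change of -0.30 against -0.023 over all genes. Of 48 proteasome subunit genes 15 were lower and 1 higher (median -0.24), and of 17 ATP synthase subunit genes 8 were lower (median -0.44). The falling counts of the first 3 families were 3, 0 and 1 without untreated day 2.5 replicate 2, 13, 6 and 6 without untreated day 2.5 replicate 1, 11, 4 and 4 without untreated day 2 replicate 1 and 9, 3 and 4 without untreated day 2 replicate 2. These are short transcripts, with median exon lengths of 1776, 2804 and 2600 bases against 4372 over all genes. With length and GC trends removed 23, 18 and 8 were lower and 10, 5 and 1 higher, and the medians were -0.22, -0.17 and -0.38. For complex I of the respiratory chain, 7 of 41 were lower and 4 higher, and with trends removed 9 were lower and 9 higher. Of 69 small nucleolar RNA genes 7 were lower, which is near the share over all genes, and 1 was higher (median -0.60). With trends removed 3 were lower and 4 higher (median -0.18). The falling counts of these 2 families were 2 and 3 without untreated day 2.5 replicate 1, 1 and 0 without its replicate 2, 1 and 1 without untreated day 2 replicate 1 and 1 and 2 without its replicate 2.

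Of 4 Rhox homeobox genes tested, 2 were lower at day 2.5, with a median of -2.55, and 3 were lower without untreated day 2.5 replicate 1.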
